A study of Homo sapiens with 8 samples.

Results

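The snoRNA host gene RNAs are long noncoding RNAs whose introns carry small nucleolar RNAs. They were taken here as every gene with a GENCODE symbol of the form SNHG followed by a number, together with GAS5, ZFAS1, EPB41L4A-AS1 and DANCR. This rule found 32 of the 69215 genes in the count files, and 29 of the 32 were among the 15931 genes that passed the expression filter. All 32 are annotated as lncRNA genes. GENCODE v44 places at least 1 snoRNA gene on the same strand inside 31 of them, and the exception, GAS5, holds 11 snoRNA genes by RefSeq positions.

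RNA was sequenced from G401, an established cell line of a kidney rhabdoid tumor. These cells have lost SMARCB1, a core subunit of the mSWI/SNF chromatin remodeling complexes. A Tet-On system let doxycycline (Dox) switch on SMARCB1 in one engineered line and GFP in the control line. Cells of each line received 0.1 µg/ml Dox (SMARCB1 Dox, GFP Dox) or the solvent dimethylsulfoxide (SMARCB1 DMSO, GFP DMSO) for 12 h, and each of the 4 groups held 2 libraries. The study's methods pool 6 plates for each condition and name a directional total RNA kit, whereas the sample labels give kits sold for ribosome profiling, so the library chemistry was uncertain. Each construct was represented by a single engineered line, so a difference between the lines cannot be told apart from the construct they carry.

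snoRNAs are cut from the introns of their host transcripts and then guide chemical modification of other RNAs. Box C/D snoRNAs guide methylation of the ribose and box H/ACA snoRNAs guide pseudouridylation, mainly of ribosomal RNA, while the related scaRNAs act on spliceosomal RNAs. The spliced exons that remain often encode no protein. Many hosts belong to the 5′ terminal oligopyrimidine (5′TOP) class, whose transcripts begin with a run of C and T like the mRNAs of ribosomal proteins, and several are engaged by ribosomes and then removed by nonsense-mediated decay (NMD), so that their level depends on transcription and on translation-coupled decay.

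Counts assigned to genes lay between 29632090 and 37597477 per library. The introduced SMARCB1 transcript had 10 and 21 counts in SMARCB1 DMSO, 30474 and 29383 counts in SMARCB1 Dox and 0 in all 4 libraries of the GFP line, as labelled. VIM, KRT8 and KRT18, which mark rhabdoid cells, were present at 212 CPM or more in every library, and PTPRC, EPCAM and PECAM1, which mark blood, epithelial and endothelial cells, never exceeded 7 counts. CPM here means counts relative to library size, adjusted by TMM factors. The share of mitochondrially encoded genes ran from 18.9% to 27.9% and was highest in SMARCB1 DMSO replicate 1, whose TMM factor, 0.907, was the lowest. Replicates were compared as deposited, and their counts differed by more than sampling noise.

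Ribosomal protein genes, the best known 5′TOP genes, served as a reference for the 5′ ends of the host genes. Within 20 bases on either side of the start, 8 of the 28 host genes with a RefSeq promoter sequence had a run of at least 8 pyrimidines (C or T) on the transcribed strand, which is 28.6%, and 2 (7.1%) had one on the other strand. The share was 17.3% over all 27305 promoters of the table, 17.2% over 3723 lncRNA genes and 78.3% over 69 cytosolic ribosomal protein genes. The search took any mixture of C and T and allowed no other base, and a match describes the letters only. Runs away from the start were counted too. Those of SNHG29 and SNHG7 ended before it, and those of SNHG16 and SNHG26 began at base 4 and base 11 of the transcript. The windows below run from 20 bases before the annotated start to base 20 of the transcript (GRCh38.p14, RefSeq), with the longest run of pyrimidines on the transcribed strand in capitals (both runs where 2 are equally long). They are shown for hosts that passed the filter and whose longest run, of 6 bases or more, begins at the first base of the transcript or at most 2 bases before it, and for SNHG16, SNHG29, SNHG20, SNHG1 and GAS5, on which the levels and comparisons below turn. SNHG18, which did not pass the filter, had a run of 21 bases from 1 base before the start and is not printed.
SNHG4: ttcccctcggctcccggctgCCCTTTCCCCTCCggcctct
SNHG12: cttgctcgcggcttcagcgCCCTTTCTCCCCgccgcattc
SNHG32: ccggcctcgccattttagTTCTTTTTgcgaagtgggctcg
ZFAS1: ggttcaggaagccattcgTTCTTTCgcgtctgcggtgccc
SNHG19: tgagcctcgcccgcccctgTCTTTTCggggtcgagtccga
SNHG5: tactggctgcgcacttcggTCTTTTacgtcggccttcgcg
SNHG16: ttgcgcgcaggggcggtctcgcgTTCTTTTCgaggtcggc
SNHG29: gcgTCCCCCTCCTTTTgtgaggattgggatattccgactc
SNHG20: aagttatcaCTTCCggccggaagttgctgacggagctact
SNHG1: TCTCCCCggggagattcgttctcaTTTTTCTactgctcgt
GAS5: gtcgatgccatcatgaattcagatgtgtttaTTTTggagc

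SNHG4 (chr5:139274081-139274120, plus strand) had a run of 13 pyrimidines that began on its first transcribed base, and SNHG12 (chr1:28581854-28581893, minus strand) had a run of 12 that began 1 base before it. The runs of SNHG32 (chr6:31834896-31834935, plus), ZFAS1 (chr20:49278622-49278661, plus), SNHG19 (chr16:2155339-2155378, minus) and SNHG5 (chr6:85678714-85678753, minus) were shorter, at 8, 7, 7 and 6 bases, and each spanned the start. In SNHG16 (chr17:76557744-76557783, plus) a run of 8 began 3 bases downstream of the first base, and in SNHG29 (chr17:16438967-16439006, plus) the run of 13 ended before the start. SNHG20 (chr17:77088623-77088662, plus) and GAS5 (chr1:173869026-173869065, minus) had no run longer than 5 and 4 bases at the start RefSeq lists. The GAS5 window lies wholly upstream of the gene in GENCODE v44, whose 5′ boundary is at 173868882, so it does not describe the start of the gene in that annotation. SNHG1 (chr11:62855866-62855905, minus) had 2 runs of 7 bases, 1 at the upstream edge of its window and 1 from base 5 to base 11 of the transcript.

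**Figure D1:**
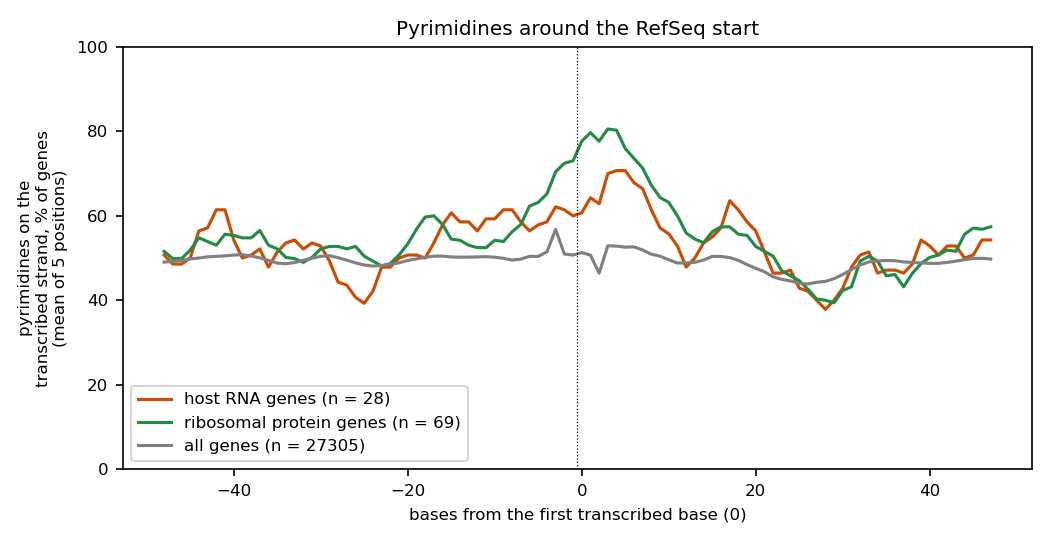
The share of genes with a pyrimidine (C or T) on the transcribed strand (y axis, %, mean of 5 positions) against the distance in bases from the first transcribed base (x axis), for 28 host RNA genes, 69 ribosomal protein genes and all 27305 genes with a promoter sequence. The host genes reached 70.7% and the ribosomal protein genes 80.6% just downstream of the start, while all genes stayed at or below 56.8%.

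The host RNAs were a small part of each library. Together they held 70920 to 88100 counts, or 0.228% to 0.246% of the gene counts. SNHG16, SNHG29 and SNHG14 accounted for 65.2% of these counts over all libraries, with 26.3%, 20.8% and 18.2%. The combined share of these 3 hosts was 61.6% to 65.0% in the libraries of the SMARCB1 line and 66.5% to 68.0% in those of the GFP line, so the lines did not overlap. The median host that passed the filter had 15.0 CPM, against 0.78 CPM for the 2462 lncRNA genes tested and 12.7 CPM for all genes tested. Its exons spanned 4469 bases in all, against 2481 bases for lncRNA genes.

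Per kilobase of annotated exon, SNHG16, host of the SNORD1 family, was the highest at 107 CPM per kb, with a range of 96.0 to 119 over the 8 libraries. SNHG29, host of SNORD49A, SNORD49B and SNORD65, followed at 54.7 CPM per kb (51.4 to 58.3). SNHG3, host of SNORA73A and SNORA73B, reached 35.6 CPM per kb (28.5 to 46.5). The ranges of these 3 hosts did not overlap in that order. SNHG1, host of SNORD22 and SNORD25 to SNORD28 among others, had 21.8 CPM per kb (17.8 to 28.7) and DANCR, host of SNORA26, had 18.9 CPM per kb (17.0 to 21.2). From SNHG3 down to SNHG22, at 0.268 CPM per kb, each host overlapped its next lower neighbor. SNHG14, the long transcript of the imprinted Prader-Willi and Angelman region that carries the SNORD115 and SNORD116 clusters, followed SNHG16 and SNHG29 by CPM at 427 but reached only 3.48 CPM per kb, since its annotated exons add up to 122609 bases.

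GAS5, first isolated as a transcript of growth-arrested cells, stood at 14.0 CPM per kb. ZFAS1, host of the SNORD12 family, was at 2.40 CPM per kb, and EPB41L4A-AS1, host of SNORA13, was at 1.47 CPM per kb. At the lower end, SNHG25, SNHG21 and SNHG22 had means of 0.20, 0.40 and 0.71 CPM. SNHG21 shares 72.9% and SNHG25 39.7% of exon bases with other genes on the same strand, so reads there may be uncounted. SNHG28 had 0 counts in all libraries, but 90.8% of its exon bases are shared with other genes on the same strand, where the counting mode leaves reads unassigned, so the 0 sets no limit on its level. SNHG27 had 1 count in 2 libraries. SNHG18 had 0 counts in the 4 libraries of the SMARCB1 line, 8 and 4 counts in GFP DMSO, and 0 and 4 counts in GFP Dox. These 3 hosts did not pass the filter and were not tested.

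**Figure D2:**
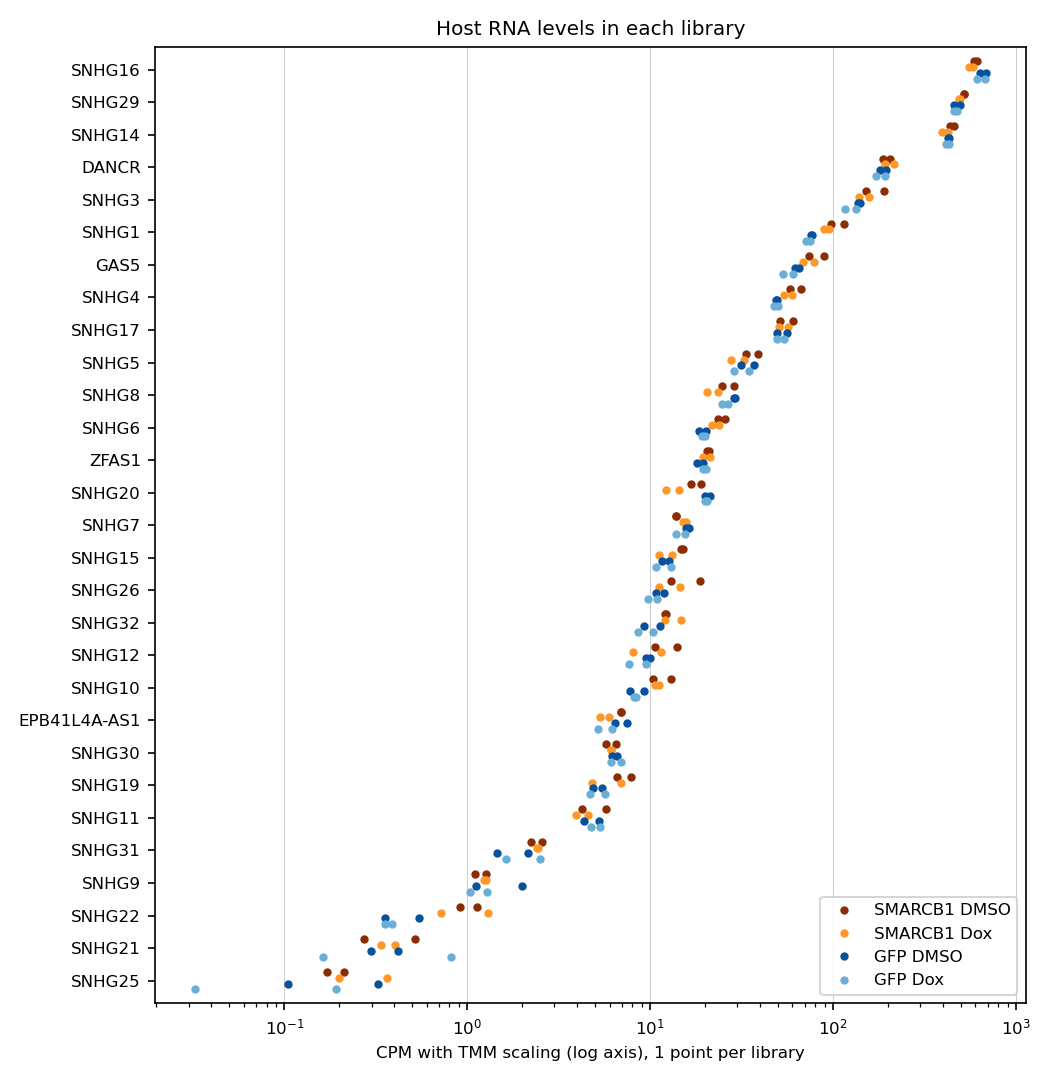
CPM with TMM scaling (x axis, log scale) of the 29 host RNAs that passed the expression filter (y axis, ordered by mean), with 1 point for each of the 8 libraries, colored by group. The hosts ran from 618 CPM for SNHG16 to 0.20 CPM for SNHG25, and most groups lay close together on this scale.

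Re-expression of SMARCB1 was compared with DMSO in the same line to ask whether host RNA levels moved after 12 h. SNHG20, host of SCARNA16, was lower and was the single host that passed the test. It had 19.1 and 16.6 CPM in SMARCB1 DMSO and 14.4 and 12.2 CPM in SMARCB1 Dox, and 21.1, 19.9, 19.9 and 20.4 CPM in the 4 libraries of the GFP line. Both SMARCB1 Dox libraries lay below all the other libraries. The log2 fold change was -0.42 (SE 0.12, 95% interval -0.66 to -0.18), a level 25.2% lower, with an adjusted p of 0.018 by edgeR's quasi-likelihood test. The call was lost without SMARCB1 DMSO replicate 1 (log2 fold change -0.32, adjusted p = 0.18), without SMARCB1 Dox replicate 2 (-0.30, adjusted p = 0.16) and with library totals in place of TMM (-0.32, adjusted p = 0.068). A bulk level cannot tell less SNHG20 in every cell from fewer cells that express it. SEC14L1, the coding gene with which SNHG20 shares exon bases on the same strand, had a log2 fold change of 0.01 in the same comparison (adjusted p = 0.94, edgeR).

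SNHG20 was thus 1 of 29 hosts called, or 3.45%, where 14% of all genes tested were called and 5.69% were called lower. Among the 2462 lncRNA genes tested, 161 (6.54%) were called. Small negative values were nevertheless common among the hosts, since 23 of 29 had a log2 fold change below 0 against 50.6% of all genes. Both Dox libraries lay below both DMSO libraries in 9 of 29 hosts, which is near the share of all genes, 25.2%. The median log2 fold change of the hosts was -0.12, close to that of all lncRNA genes tested, -0.12, and below that of all genes, 0.00. With library totals as the scaling, 17 of 29 hosts lay below 0 and the median was -0.03, beside a median of 0.09 for all genes.

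Of the hosts that did not pass the test, 5 had an unadjusted p below 0.05 and all 5 were lower. SNHG8, host of SNORA24, had 28.6 and 24.7 CPM in SMARCB1 DMSO and 23.4 and 20.6 CPM in SMARCB1 Dox, a log2 fold change of -0.28 (SE 0.10, adjusted p = 0.085, edgeR). SNHG1 had 114 and 97.8 CPM against 95.1 and 88.8 CPM, a log2 fold change of -0.20 (SE 0.09, adjusted p = 0.12, edgeR). The groups of these hosts did not overlap, though the DMSO replicates lay further apart than the nearest DMSO and Dox libraries. SNHG5, host of SNORD50B, SNHG15, host of SNORA9, and SNHG3 had log2 fold changes of -0.26, -0.28 and -0.21 with adjusted p of 0.14 to 0.18 (edgeR). In the opposite direction, SNHG7, host of SNORA17A and SNORA17B, had a log2 fold change of 0.16 (SE 0.11, adjusted p = 0.41, edgeR). This was the largest positive value of the hosts with a mean of at least 100 counts. For Dox in the GFP line the 5 lower hosts also had log2 fold changes below 0. These were -0.17 for SNHG8, -0.15 for SNHG3, -0.11 for SNHG5, -0.07 for SNHG1 and -0.03 for SNHG15.

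GAS5, ZFAS1 and DANCR gave small values. GAS5 had 89.5 and 74.0 CPM in SMARCB1 DMSO and 78.3 and 68.7 CPM in SMARCB1 Dox, so the groups overlapped, and its log2 fold change was -0.15 (95% interval -0.35 to 0.05). ZFAS1 had 20.5 and 21.0 CPM against 21.4 and 19.4 CPM, with a log2 fold change of -0.02 (-0.24 to 0.19). DANCR had 206 and 189 CPM against 215 and 193 CPM, with a log2 fold change of 0.05 (-0.13 to 0.23). None of these 3 hosts was separated by treatment. EPB41L4A-AS1 had 6.90 and 6.95 CPM against 5.98 and 5.35 CPM, a log2 fold change of -0.29 (-0.62 to 0.04) without overlap of the groups. Its GFP line values were much the same, with 6.42 and 7.45 CPM in GFP DMSO and 5.20 and 6.20 CPM in GFP Dox, a log2 fold change of -0.28 also without overlap, and the difference of the Dox effects was -0.01. EPB41L4A-AS1 shares 51.2% of its exon bases with genes on the opposite strand. The 2 most abundant hosts also stayed close to 0, SNHG16 at -0.08 (-0.25 to 0.10) and SNHG29 at -0.08 (-0.25 to 0.08). For all 24 hosts with a mean of at least 100 counts per library, the 95% interval of the log2 fold change stayed within 1 in either direction, from -0.69 at the lowest to 0.44 at the highest.

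In the GFP line, Dox with the induction of GFP was compared with DMSO as the control for Dox in the SMARCB1 line. By edgeR 0 of 29 hosts were called and 0 had an unadjusted p below 0.05, and 0% of all genes tested were called. DESeq2 called 0 hosts as well. SNHG20 had 21.1 and 19.9 CPM in GFP DMSO and 19.9 and 20.4 CPM in GFP Dox, with a log2 fold change of -0.03 (SE 0.11). GAS5 had 65.3 and 62.1 CPM against 53.2 and 60.2 CPM, with a log2 fold change of -0.17 (95% interval -0.37 to 0.04). Values below 0 were again frequent, in 22 of 29 hosts against 47.9% of all genes, and 6 of 29 hosts had both Dox libraries below both DMSO libraries against 13.2% of all genes. The median of the hosts was -0.04, that of lncRNA genes was -0.05 and that of all genes was 0.00.

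**Figure D3:**
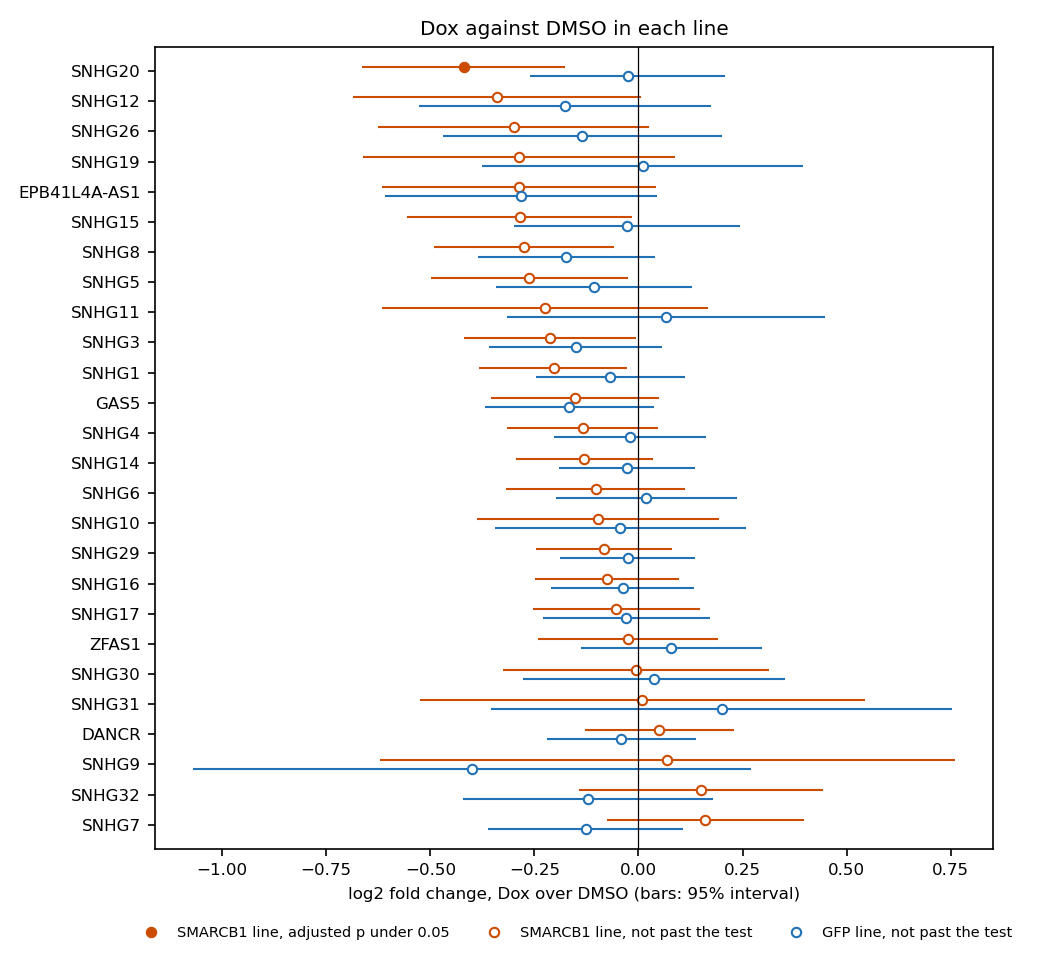
The log2 fold change of Dox over DMSO (x axis, bars give the 95% interval, n = 2 libraries per group) for the 26 hosts with a mean of at least 1 CPM (y axis), with the SMARCB1 line in orange and the GFP line in blue. SNHG20 in the SMARCB1 line, at -0.42, is the single filled point, which marks an adjusted p under 0.05, and most other points of both lines lie a little below 0.

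The difference between these Dox effects was tested as an interaction. By edgeR 0 of 29 hosts passed, where 4.71% of all genes did, 1 host had an unadjusted p below 0.05, and DESeq2 also called 0 hosts. SNHG20 had the smallest p, with a difference of -0.39 (SE 0.16, adjusted p = 0.21, edgeR), so in this fit its lower level in SMARCB1 Dox was not shown to differ from the effect of Dox in the GFP line. Other fits of this difference are given with the alternatives. The difference was below 0 in 22 of 29 hosts against 50.9% of all genes, with a median of -0.10. When SMARCB1 DMSO replicate 1 was left out, 16 hosts remained below 0 and the median was -0.02, and without SMARCB1 Dox replicate 2 it was -0.02 with 17 hosts below 0.

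More hosts were called between the lines than for Dox. Comparing SMARCB1 DMSO with GFP DMSO, where neither transgene was induced, 8 of 29 hosts (27.6%) were called and all 8 were higher in the SMARCB1 line. Over all genes 32% were called and 16.3% were called higher, and 19% of lncRNA genes were called. SNHG1 had 114 and 97.8 CPM in SMARCB1 DMSO and 75.9 and 77.1 CPM in GFP DMSO, a log2 fold change of 0.47 (SE 0.09, adjusted p = 0.00018, edgeR). GAS5 had 89.5 and 74.0 CPM against 65.3 and 62.1 CPM, a log2 fold change of 0.36 (SE 0.10, adjusted p = 0.0064, edgeR). SNHG4, host of SNORA74A, had 66.4 and 58.3 CPM against 49.4 and 49.0 CPM, a log2 fold change of 0.34 (SE 0.09, adjusted p = 0.0044, edgeR). In each of these hosts SMARCB1 DMSO replicate 1 was the highest library of the series.

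SNHG3 had 190 and 152 CPM in SMARCB1 DMSO against 141 and 137 CPM in GFP DMSO (log2 fold change 0.30, SE 0.10, adjusted p = 0.025, edgeR). SNHG6, host of SNORD87, had 23.4 and 25.7 CPM against 20.2 and 18.6 CPM (0.34, SE 0.10, adjusted p = 0.015, edgeR), and it shares 58.9% of its exon bases with genes on the opposite strand. SNHG10, host of SCARNA13, had 13.0 and 10.4 CPM against 9.27 and 7.79 CPM (0.45, SE 0.14, adjusted p = 0.018, edgeR). The groups did not overlap in any of these 3 hosts. SNHG26, host of SNORD93, had 18.8 and 13.0 CPM against 11.9 and 10.7 CPM (0.49, SE 0.16, adjusted p = 0.022, edgeR), and SNHG19, host of SNORD60, had 7.86 and 6.55 CPM against 5.45 and 4.85 CPM (0.48, SE 0.18, adjusted p = 0.046, edgeR). SNHG22, host of SCARNA17, had the largest value, 1.16, but only 12 to 46 counts per library. Its SE was 0.44 and its adjusted p 0.050 (edgeR), just outside the threshold. MYO5B, with which SNHG22 shares 8.6% of its exon bases on the opposite strand, was higher too, at 2.51 (adjusted p = 0.000178, edgeR). Whether reads of MYO5B entered the SNHG22 counts was not tested.

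SMARCB1 DMSO replicate 1 moved with these results. It had the highest mitochondrial share and the lowest TMM factor of the series, as given above, and the median host deviated by 0.13 (log2) from its mean over all libraries in it, against -0.18 to 0.09 in the others. Without it 2 hosts were called, SNHG1 and SNHG6, and several log2 fold changes were smaller, such as SNHG26 at 0.20, SNHG3 at 0.13 and GAS5 at 0.22. Without GFP DMSO replicate 2 there were also 2 calls, SNHG1 and SNHG4, while the log2 fold changes moved less, with SNHG26 at 0.40, SNHG3 at 0.27 and GAS5 at 0.32. Without GFP DMSO replicate 1, SNHG3 (0.32) and SNHG19 (0.57) were not called although their log2 fold changes were no smaller, and SNHG6 (0.27) was not called without SMARCB1 DMSO replicate 2. Every fit between the lines that left out 1 library also called a smaller share of all genes than the full fit. How much of the drop in host calls went with this was not tested. With library totals as the scaling, 4 hosts were called, SNHG1 higher and SNHG16, SNHG20 and SNHG7 lower, where 33.8% of all genes were called. The part of RNA quality or library composition in the result was not tested. With mitochondrial genes left out of the scaling and the test, 9 hosts were called, all of them higher, where 32.1% of all genes were called. SNHG1 was called under all 14 alternatives, with log2 fold changes of 0.35 to 0.57.

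Over all hosts tested, 21 of 29 were above 0 in the SMARCB1 line against 51.5% of all genes, and 16 of 29 were higher in both SMARCB1 DMSO libraries than in both GFP DMSO libraries against 33.1% of all genes. The median of the hosts was 0.14, that of lncRNA genes 0.02 and that of all genes 0.02. With library totals the host median was 0.02, beside -0.10 for all genes. SNHG7, SNHG20, SNHG16 and SNHG8 lay in the opposite direction, at log2 fold changes of -0.21, -0.20, -0.14 and -0.12, without overlap of the groups. None of them passed the test, and the share of all genes lower without overlap was not computed for this comparison. SEC14L1, which shares exon bases with SNHG20 on the same strand, was also lower between the lines, at -0.41 (adjusted p = 0.000265, edgeR).

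**Figure D4:**
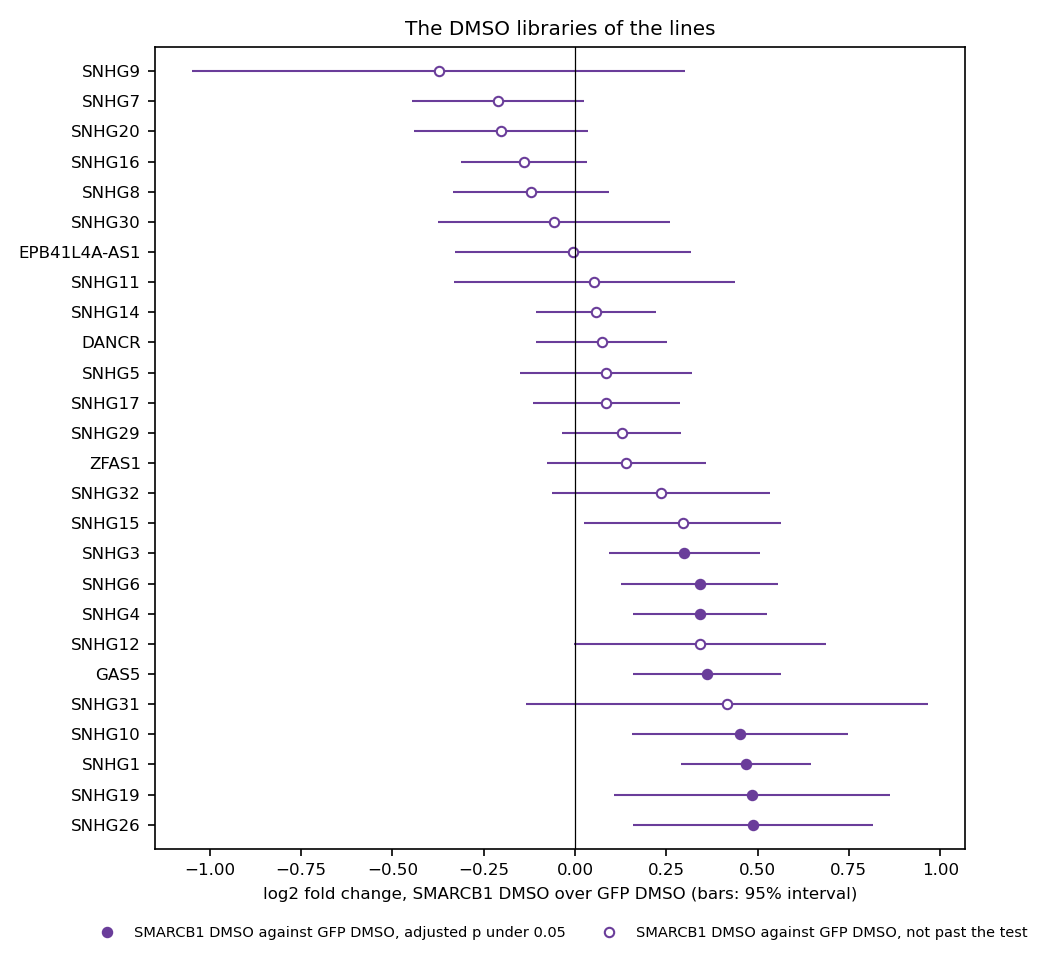
The log2 fold change of SMARCB1 DMSO over GFP DMSO (x axis, bars give the 95% interval, n = 2 libraries per group) for the 26 hosts with a mean of at least 1 CPM (y axis). The 8 filled points, which passed the test at an adjusted p under 0.05, all lie above 0, from 0.30 for SNHG3 to 0.49 for SNHG26.

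The 8 hosts were also read in the Dox libraries of the lines, which that comparison did not contrast but which shared its scaling, filter and estimate of spread. In 7 of the 8, all but SNHG19, both SMARCB1 Dox libraries were higher than both GFP Dox libraries, with log2 ratios of the group means between 0.22 for SNHG6 and 0.40 for SNHG10. This was the case for 34.7% of all genes tested and for 88.5% of the 2600 genes called higher in SMARCB1 DMSO, so the 87.5% among the hosts was near the share of other genes called in the same way. SNHG1 had 95.1 and 88.8 CPM in SMARCB1 Dox and 70.7 and 75.2 CPM in GFP Dox, and GAS5 had 78.3 and 68.7 CPM against 53.2 and 60.2 CPM. The 8 hosts also had log2 fold changes below 0 for Dox in the SMARCB1 line, from -0.30 for SNHG26 to -0.10 for SNHG10. Both comparisons use the SMARCB1 DMSO libraries, so these values are not independent of each other.

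**Figure D5:**
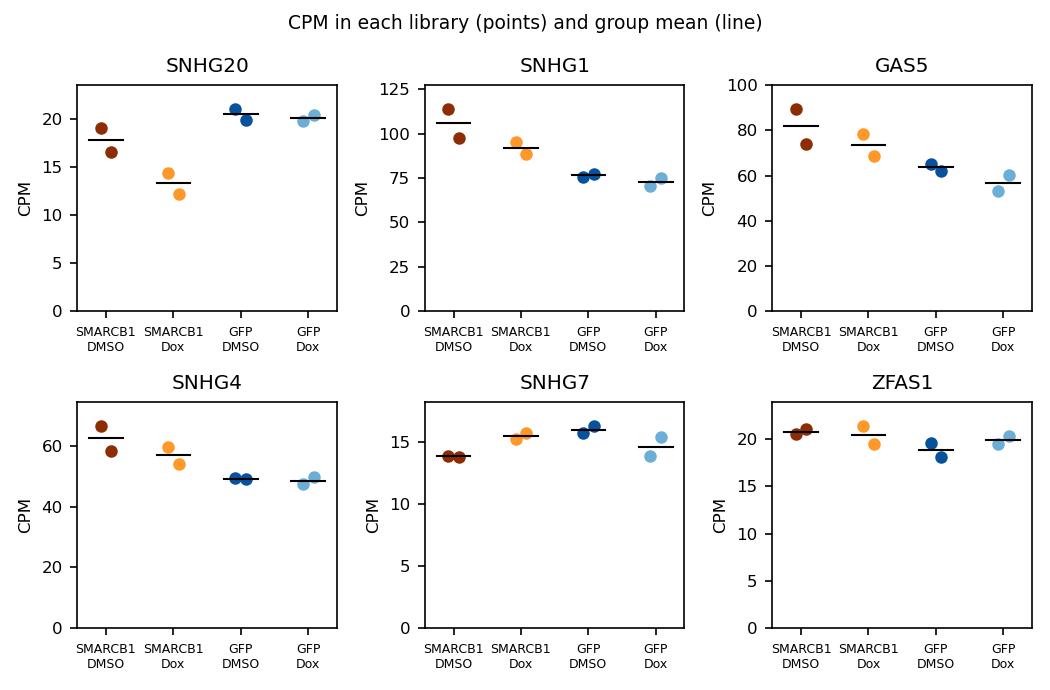
CPM (y axis, from 0) of SNHG20, SNHG1, GAS5, SNHG4, SNHG7 and ZFAS1 in each library (points, 2 per group), with the group mean as a line. SNHG20 is lowest in SMARCB1 Dox, SNHG1, GAS5 and SNHG4 are higher in SMARCB1 DMSO than in both GFP groups, and ZFAS1 stays between 18.1 and 21.4 CPM.

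Genes that act on host RNAs, NMD targets, 5′TOP genes and protein-coding snoRNA hosts were read from the same tests. Of 19 genes for snoRNP core and assembly proteins, 1 was called after SMARCB1 re-expression (5.26%, against 14% of all genes). By edgeR 0 were called in the difference of the Dox effects, against 4.71% of all genes, where 2 had an unadjusted p below 0.05 and DESeq2 called 0. NOP10, a core protein of box H/ACA particles, had 118 and 112 CPM in SMARCB1 DMSO and 97.2 and 88.1 CPM in SMARCB1 Dox, a log2 fold change of -0.31 (SE 0.08, adjusted p = 0.015, edgeR). Its GFP line libraries lay between 93.0 and 105 CPM, below both SMARCB1 DMSO libraries. Between the DMSO groups NOLC1, a chaperone of snoRNPs, was lower in the SMARCB1 line at a log2 fold change of -0.58, and the other 18 were not called. That is 5.26% of the list, against 32% of all genes. The medians of this list were -0.04 for Dox in the SMARCB1 line and -0.05 between the lines, beside 0.00 and 0.02 for all genes.

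Among 22 genes for NMD factors, 2 were called after SMARCB1 re-expression, which is 9.09% against 14% of all genes. In the difference of the Dox effects edgeR called 0 of them, against 4.71% of all genes, with 2 at an unadjusted p below 0.05, and DESeq2 called 0. UPF1, the RNA helicase at the center of NMD, had 25.6 and 29.4 CPM in SMARCB1 DMSO and 36.5 and 35.0 CPM in SMARCB1 Dox, a log2 fold change of 0.38 (SE 0.10, adjusted p = 0.017, edgeR). Its GFP line libraries lay between 30.7 and 37.2 CPM, so the SMARCB1 DMSO libraries were the ones that stood apart. PNRC2, a decapping adaptor, had 181 and 176 CPM against 148 and 154 CPM, a log2 fold change of -0.24 (SE 0.08, adjusted p = 0.042, edgeR). Between the DMSO groups 3 were higher and 6 lower in the SMARCB1 line, or 40.9% against 32% of all genes. The largest values were those of RBM8A, a core protein of the exon junction complex, at -0.60, PNRC2 at 0.46, the decapping enzyme DCP2 at -0.41 and UPF3A at 0.40.

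Of 9 protein-coding transcripts known as NMD targets, 1 was higher and 1 lower after SMARCB1 re-expression, or 22.2% against 14% of all genes. GADD45A, a stress-induced gene, had 17.2 and 18.1 CPM in SMARCB1 DMSO and 25.5 and 26.6 CPM in SMARCB1 Dox (log2 fold change 0.56, SE 0.11, adjusted p = 0.0014, edgeR). MAP3K14, a kinase of the noncanonical NF-κB pathway, had 43.1 and 41.2 CPM against 32.1 and 28.6 CPM (-0.47, SE 0.09, adjusted p = 0.00083, edgeR). It was also the single gene of the list called in the difference of the Dox effects, at -0.49, where 4.71% of all genes were called. Between the lines 4 were higher in SMARCB1 DMSO, ATF3 (log2 fold change 0.93), SLC7A11 (0.91), DDIT3 (0.90) and GADD45A (0.58), and MAP3K14 was lower (-0.24), in all 55.6% of the list against 32% of all genes. Of these, ATF3 and DDIT3 are transcription factors of the integrated stress response and SLC7A11 is a cystine transporter that this response induces.

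Of 18 5′TOP mRNAs of the translation machinery, 0 were called for Dox in the SMARCB1 line by edgeR or DESeq2 (2 had an unadjusted p below 0.05). Of 83 cytosolic ribosomal protein genes tested only RPL22 was called, or 1.2% (log2 fold change -0.26, SE 0.08, adjusted p = 0.032, edgeR). By edgeR 14% of all genes were called in this comparison. The medians of these lists were -0.03 and -0.03. Between the DMSO groups 43 of the 83 ribosomal protein genes were higher in the SMARCB1 line and 1, RPL22L1, was lower, with a median of 0.22, and of the 18 5′TOP mRNAs 6 were higher and 1 lower, with a median of 0.16. TPT1 (0.28), EIF3L (0.27) and NAP1L1 (0.27) were among those higher, and EIF3F was lower at -0.79. RPL39L (1.09), RPL38 (0.45) and RPL36 (0.36) had the largest values of the ribosomal protein genes that were higher. These shares stand beside the 32% of all genes called between the lines.

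The protein-coding snoRNA hosts, genes that carry a snoRNA and also encode a protein, did not share 1 direction. Of 218 tested, 10 were higher and 13 lower with Dox in the SMARCB1 line, or 10.6% against 14% of all genes, and 41 were higher and 34 lower between the DMSO groups, or 34.4% against 32% of all genes. Their medians were -0.02 and 0.03. Without the ribosomal protein genes among them, 190 remained, of which 24 were higher and 34 lower between the DMSO groups, with a median of -0.02. WDR17 had 14.2 and 15.1 CPM in SMARCB1 DMSO and 5.39 and 6.58 CPM in SMARCB1 Dox, and LAMB1, a laminin subunit, had 84.8 and 72.5 CPM against 148 and 156 CPM. SKAP1 was lower (log2 fold change -1.11), and ABTB3 was higher but stayed at or below 0.43 CPM in the SMARCB1 line, against 49.2 to 52.5 CPM in the GFP line. Between the DMSO groups LAMB1, CAMK1D and SKAP1 had the largest positive values, with 0.21 to 0.56 CPM in GFP DMSO and 4.49 to 84.8 CPM in SMARCB1 DMSO. In the GFP line 0 genes of all these lists were called for Dox by edgeR or DESeq2, and 2 of them, both protein-coding hosts, had an unadjusted p below 0.05.

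The snoRNAs themselves were almost absent from these counts. GENCODE v44 lists 145 snoRNA or scaRNA genes inside the hosts, and they received 77 to 130 counts per library in all, against 70920 to 88100 for the hosts. SNORA73B in SNHG3 had 60 to 103 counts per library and SNORA74A in SNHG4 had 6 to 22 counts, and these made up 632 and 120 of the 786 counts in all libraries. The 80 snoRNA genes that lie wholly inside annotated exons of their host, and the 6 that lie partly inside, had 0 counts in all 8 libraries, while 6 of the 59 outside host exons had at least 1. The counting mode assigns a read that lies wholly within both a host exon and a snoRNA gene to neither, so the 0 counts of those 80 genes say nothing of the snoRNA level.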

How the data were processed

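RNA of 8 libraries (4 groups of 2) was analysed. The authors aligned reads with STAR and counted them over exons with HTSeq (intersection-strict mode, GENCODE v42, hg38), and deposited the raw counts. Versions and the strand option were not given in the sources used here, so counts of hosts that overlap genes on the other strand are uncertain. The 5 entries that name no gene held 27.0% to 29.3% of the reads and were left out. Symbols came from GENCODE v44 (62625 of 69215 identifiers matched) and promoter sequences from RefSeq (28 of 32 hosts matched, not SNHG6, SNHG9, SNHG15 or SNHG25).

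Counts were tested in R 4.3.3 with edgeR 4.0.16 (default expression filter, TMM, quasi-likelihood test), in 1 model of group means over the 8 libraries. A gene was called where the p adjusted over all genes tested (Benjamini-Hochberg) was under 0.05. The study's methods name DESeq2 (1.42.0 here), which was an alternative, as were other scalings, filters, a replicate block and leaving out each library. The fit was also run on simulated counts with known fold changes, with levels and spread taken from these data. The study's duplicates are not described further. The p-values and the intervals of the fold changes therefore both rest on the spread between these libraries, which may be technical.

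The hosts and gene lists were chosen with earlier results of these data known. Named in full were hosts called in a comparison, the 5 highest per kb, GAS5, ZFAS1, EPB41L4A-AS1, DANCR and SNHG1. From each other list up to 4 called genes at 1 CPM or more were named, by absolute log2 fold change. SNHG7, SNHG8, SNHG5, SNHG15, SNHG14, SNHG22 and the hosts whose promoter windows are shown were added after their values were seen, as was the look at the Dox libraries of both lines.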

Additional observations from a re-analysis of the deposited data

Results flagged for a closer look

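Among the 29 hosts tested, SNHG7 was the single one whose Dox libraries lay above both DMSO libraries in the SMARCB1 line and below both in the GFP line. The share of all genes with this pattern was not computed, so the pattern is not shown to be unusual. In the GFP line alone, both Dox libraries lay below both DMSO libraries for 13.2% of all genes. The values of SNHG7 were as follows. It had 13.9 and 13.8 CPM in SMARCB1 DMSO and 15.2 and 15.7 CPM in SMARCB1 Dox, but 15.7 and 16.3 CPM in GFP DMSO and 13.8 and 15.4 CPM in GFP Dox. The difference of the Dox effects was 0.29 on the log2 scale (SE 0.16), and by itself it did not pass the test (adjusted p = 0.40, edgeR). DIPK1B, with which SNHG7 shares exon bases on the opposite strand, had a difference of 0.13 (adjusted p = 0.74, edgeR).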

How the results depend on the processing

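With library totals in place of TMM, 0 hosts were called for Dox in the SMARCB1 line (median -0.03, 15.6% of all genes called). Between the lines 4 were called (median 0.025, 33.8% of all genes called), and the median of the difference was -0.022. The cause was not tested. A replicate block gave 4 calls for Dox in the SMARCB1 line (SNHG1, SNHG5, SNHG8, SNHG20), where it called 19.8% of all genes against 14% in the main fit. A replicate block with a GC trend removed gave 3 there (SNHG5, SNHG12, SNHG20), where 19.5% of all genes were called. It gave 1 call in the difference (SNHG20, lower), against 8.09% of all genes, and a median of 0.068 between the lines. Deviations of same-numbered libraries correlated at 0.20 within the SMARCB1 line and 0.18 within the GFP line, and at 0.056 to 0.096 across the lines. As not every pair was above 0.1, the main fit did not take the numbers as pairs. Pairing within a line is not excluded by this, and the replicate block gives that alternative. Leaving out 1 library each gave 0 to 5 calls (medians -0.172 to -0.055) for Dox in the SMARCB1 line, with 0 without SMARCB1 DMSO 1 or SMARCB1 Dox 2 and 5 without SMARCB1 DMSO 2. It gave 0 calls (medians -0.095 to 0.01) in the GFP line, 0 calls (medians -0.153 to -0.015) for the difference and 2 to 8 calls (medians 0.127 to 0.201) between the lines. A lone library was assumed to vary like the other groups. For Dox in the SMARCB1 line and between the lines, these fits also called a smaller share of all genes than the full fit. With the longest transcript in place of the exon union, SNHG16 was at 171, SNHG29 at 148, SNHG3 at 55.7 and DANCR at 31.8 CPM per kb. Counting only hosts with a snoRNA gene inside by GENCODE dropped GAS5 and left 28 hosts with 1, 0, 0 and 7 calls. The log2 fold changes of the called hosts reversed under none of the alternatives run. Depth limits SNHG9, SNHG21, SNHG22, SNHG25 and SNHG31, whose means lie under 100 counts. Exon bases shared with other genes on the same strand may also limit the counts of SNHG21 and SNHG25.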
